A study of Mus musculus with 4 samples.

Results

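Myelinating Schwann cells of the uninjured adult mouse sciatic nerve were described here from a Drop-seq library of dissociated nerve cells. A cell was a member when its barcode had at least 200 genes and at most 10% mitochondrial UMIs, carried at least 4 UMIs summed over the myelin genes Mag, Prx, Ncmap, Pllp and Mal, and had 0 UMIs of Pdgfra, Pecam1 and Ptprc, which mark mesenchymal, endothelial and immune cells. UMIs are unique molecular identifiers, so each one stands for 1 captured transcript. The rule found 123 members among 1945 uninjured barcodes that passed the filters (6.32%, exact Clopper-Pearson 95% interval 5.28 to 7.499%), of 12268 such barcodes in the whole series.

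All 4 libraries came from sciatic nerves of Wildtype CD1 mice, and there was 1 library for each condition. The uninjured library was made from adult nerves and cleared with myelin removal beads. A second adult library held the distal nerve at 3 days post-injury (DPI), after resection, and was also cleared with beads. The neonatal libraries were a FACS-sorted preparation at P3-P4 and a bead-cleared preparation at P2-P3. No source used here gives the number of animals per library, so values of different conditions carry no biological error. All intervals below cover counting error in these libraries alone, and no test between conditions was possible.

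A myelinating Schwann cell wraps a single axon segment and compacts its membrane into myelin. Its proteins include Pmp22 and the myelin basic protein Mbp, and the membrane is rich in cholesterol and galactolipids. Egr2, also called Krox20, is the transcription factor that turns on and maintains this programme, acting with Sox10. Non-myelinating Schwann cells of the adult nerve instead ensheath bundles of small axons and keep surface proteins such as Ngfr, L1cam and Ncam1. The beads remove myelin debris, and many large myelinating cells can be lost with it or broken during dissociation.

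The sequences upstream of 4 of the 5 genes that chose the members are shown first, because their UMIs decide which cells are described. The windows of Prx, Ncmap and Mag were picked among those with a motif match, and Mal, which gave the most rule-gene UMIs, is shown as a window without one. Each is the 250 bases before a RefSeq transcript start (GRCm38.p6, the assembly that mm10 names), 5′ to 3′ on the gene's own strand. Capitals mark matches, on either strand, to the motif GCGTGGG of EGR factors or to the SOX motifs ACAAAG and ACAATG. Prx lies on chromosome 7 and encodes periaxin, a scaffold that ties the Schwann cell's outer membrane to the basal lamina.

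Prx, chr7:27499074-27499323, plus strand: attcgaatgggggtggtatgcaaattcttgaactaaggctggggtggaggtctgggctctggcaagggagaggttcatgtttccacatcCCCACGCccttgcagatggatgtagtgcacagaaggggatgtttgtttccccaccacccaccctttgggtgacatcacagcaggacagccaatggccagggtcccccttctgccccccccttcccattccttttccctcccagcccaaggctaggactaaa
Ncmap, chr4:135385673-135385922, minus strand: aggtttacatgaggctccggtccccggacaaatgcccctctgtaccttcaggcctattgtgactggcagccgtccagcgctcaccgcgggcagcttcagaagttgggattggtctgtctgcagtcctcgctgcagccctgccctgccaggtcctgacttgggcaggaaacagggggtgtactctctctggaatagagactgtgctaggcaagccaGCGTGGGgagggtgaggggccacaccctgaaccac
Mag, chr7:30914864-30915113, minus strand: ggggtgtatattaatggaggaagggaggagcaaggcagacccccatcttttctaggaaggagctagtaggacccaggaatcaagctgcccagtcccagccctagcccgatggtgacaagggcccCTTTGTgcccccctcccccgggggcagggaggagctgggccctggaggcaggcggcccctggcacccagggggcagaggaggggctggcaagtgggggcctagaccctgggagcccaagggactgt
Mal, chr2:127656696-127656945, minus strand: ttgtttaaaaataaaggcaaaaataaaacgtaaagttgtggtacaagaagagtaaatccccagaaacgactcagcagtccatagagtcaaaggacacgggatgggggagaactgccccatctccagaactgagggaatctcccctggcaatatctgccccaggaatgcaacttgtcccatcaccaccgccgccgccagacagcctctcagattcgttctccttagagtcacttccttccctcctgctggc

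The EGR motif stood 161 bases before the start of Prx and 35 bases before a start of Ncmap, a gene for a small myelin membrane protein. A SOX motif stood 126 bases before a start of Mag, the myelin-associated glycoprotein of the innermost wrap. Of 32851 windows of the same length over 27025 genes, 4.30% held the EGR motif, 16.5% held ACAAAG and 10.7% held ACAATG. Windows were found for 23 of 34 genes, the 5 rule genes and the genes named below as highest in members, and 9 of their 37 windows held a match: 2 held the EGR motif (5.41%), 5 held ACAAAG (13.5%) and 3 held ACAATG (8.11%), shares near those of all windows. Of the 8 windows of the rule genes 4 held a match and 4 did not, the windows of Mal and Pllp among the latter. The matches 126 and 67 bases before 2 starts of Mag were the same site in overlapping windows, counted once for each window. The share of all windows with a match to any of the motifs was not computed. A match is a run of letters and says nothing of binding. Fa2h and Drp2 were not in the promoter table.

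The 5 rule genes were unevenly spread over the members. Mal, which encodes a lipid raft protein of myelin, had a UMI in 94.3% of members and gave 35.5% of their rule-gene UMIs. Prx was found in 61.8%, Ncmap in 58.5%, Pllp (plasmolipin) in 54.5% and Mag in 49.6%. All 5 genes were found in 26 members, 4 in 28, 3 in 27, 2 in 27 and a single one in 15. Mal was thus the rule gene found in most members, though which gene carried each cell over the threshold was not counted. Mal was also found in 16.7% of the cells that were not members, against 1.15% for Ncmap and 2.36% for Prx. The members were chosen by these UMI counts, so the values are a description.

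**Figure D1:**
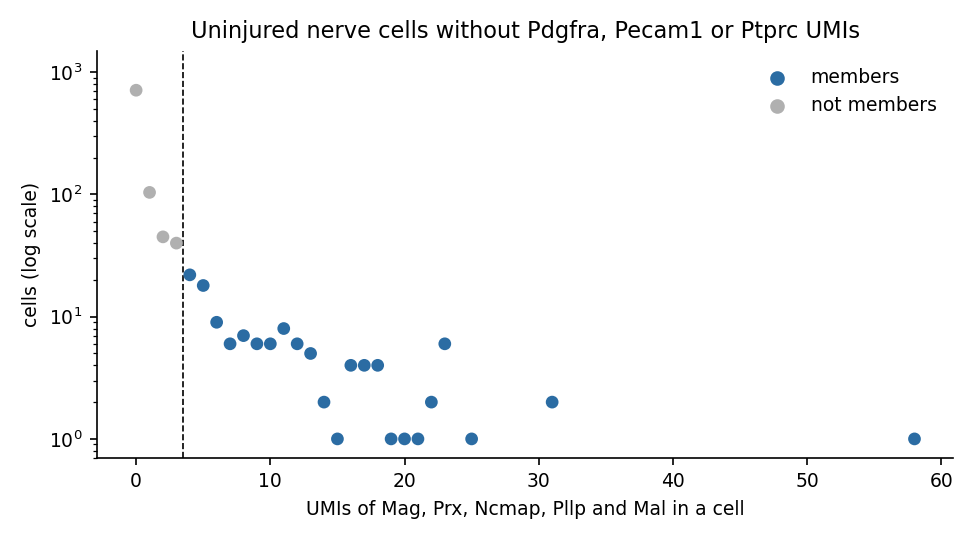
Number of uninjured nerve cells (log scale) by their UMIs of Mag, Prx, Ncmap, Pllp and Mal, among cells with 0 UMIs of Pdgfra, Pecam1 and Ptprc; the dashed line is the minimum of 4 UMIs. Cell numbers go from 40 at 3 UMIs to 22 at 4 UMIs without a gap, and the tail reaches 58 UMIs.

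The threshold cut a continuous distribution. There were 40 cells with 3 rule-gene UMIs just outside it and 22 with 4 just inside. The median member had 8 rule-gene UMIs, 1271 UMIs in all (466 to 5874) and 709 genes. Members with 10 or more rule-gene UMIs numbered 55 (44.7%), those with 6 to 9 numbered 28 and those with 4 or 5 numbered 40. Total depth was alike in the 3 groups, with medians of 1273, 1103 and 1322 UMIs per cell. The 81 cells that had enough rule-gene UMIs but also a UMI of Pdgfra, Pecam1 or Ptprc were not members.

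The label held for the cells rich in rule-gene UMIs and was not clear for those near the threshold. Pmp22, the peripheral myelin protein gene, which the rule did not use, was at 19104 counts per 1000000 UMIs (CPM) in members with 10 or more rule-gene UMIs (Poisson 95% interval 18199 to 20042), at 5702 with 6 to 9 and at 3147 with 4 or 5. Non-myelinating Schwann cells of the same library had 1700 CPM and cells with an endothelial or immune UMI had 189 CPM. The order of the 3 member groups was the same for Mbp, which compacts the cytoplasmic faces of the wraps, at 15735, 6848 and 3619 CPM. It was the same for Cldn19, a claudin of Schwann cell tight junctions, at 1085, 407 and 175 CPM, beside 28.4 CPM in non-myelinating cells. Fa2h, which makes the hydroxylated fatty acids of myelin lipids, was at 708, 204 and 17.5 CPM, the last a single UMI. Its level in non-myelinating cells was 14.2 CPM. In Pmp22 and Mbp no 2 of these intervals overlapped. Summed over 25 myelin genes that the rule did not use, members with 4 or 5 rule-gene UMIs had 30385 CPM and non-myelinating cells 18356. In the median cell it was 22651 and 20555 CPM.

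Some genes carried by non-myelinating Schwann cells had the opposite order. Scn7a, a sodium channel of non-myelinating cells, was at 206 CPM in members with 10 or more rule-gene UMIs, 1298 with 6 to 9 and 4213 (3698 to 4780) with 4 or 5, beside 4583 (4299 to 4881) in non-myelinating Schwann cells. Apoe, the lipid carrier, was at 902, 4913 and 9668 CPM, beside 9673. Lgi4, a secreted Schwann cell protein, was at 331, 1120 and 1748 CPM, beside 1809. In the group with 4 or 5 rule-gene UMIs all of these levels lay within the intervals of the non-myelinating cells or the reverse. Scn7a and Cdh2 were among the 5 genes that chose the non-myelinating cells, so their levels there are set by that choice, while Apoe, Lgi4 and Ncam1 were not. Sema3e, another of the 5, was not lower in members as a whole, at 163 CPM against 147 CPM in non-myelinating cells. Ncam1 and Cdh2, both adhesion genes, were at 11.4 and 22.8 CPM in the group with 10 or more and at 350 and 455 CPM in the group with 4 or 5.

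Cell by cell the same division was seen. At least 2 UMIs of L1cam, Cdh2, Ngfr, Scn7a and Sema3e were present in 29 of the 40 members with 4 or 5 rule-gene UMIs (72.5%), in 8 of the 28 with 6 to 9 (28.6%) and in 2 of the 55 with 10 or more (3.64%). Mal gave 68.0% of the rule-gene UMIs in the first of these groups, 45.1% in the second and 27.1% in the third. In the first group 12 cells had UMIs of no rule gene other than Mal. A UMI of Mag, Prx or Ncmap was present in all 55 cells of the third and in 25 of the 40 in the first. The values of Mal, Mag, Prx and Ncmap come from the rule genes that set the groups. They describe the groups and are no separate support for the division. The cells with 4 or 5 rule-gene UMIs are called low-marker members here, and the 55 cells with 10 or more high-marker members. Values of the whole rule and of the high-marker members are given side by side where the groups matter.

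**Figure D2:**
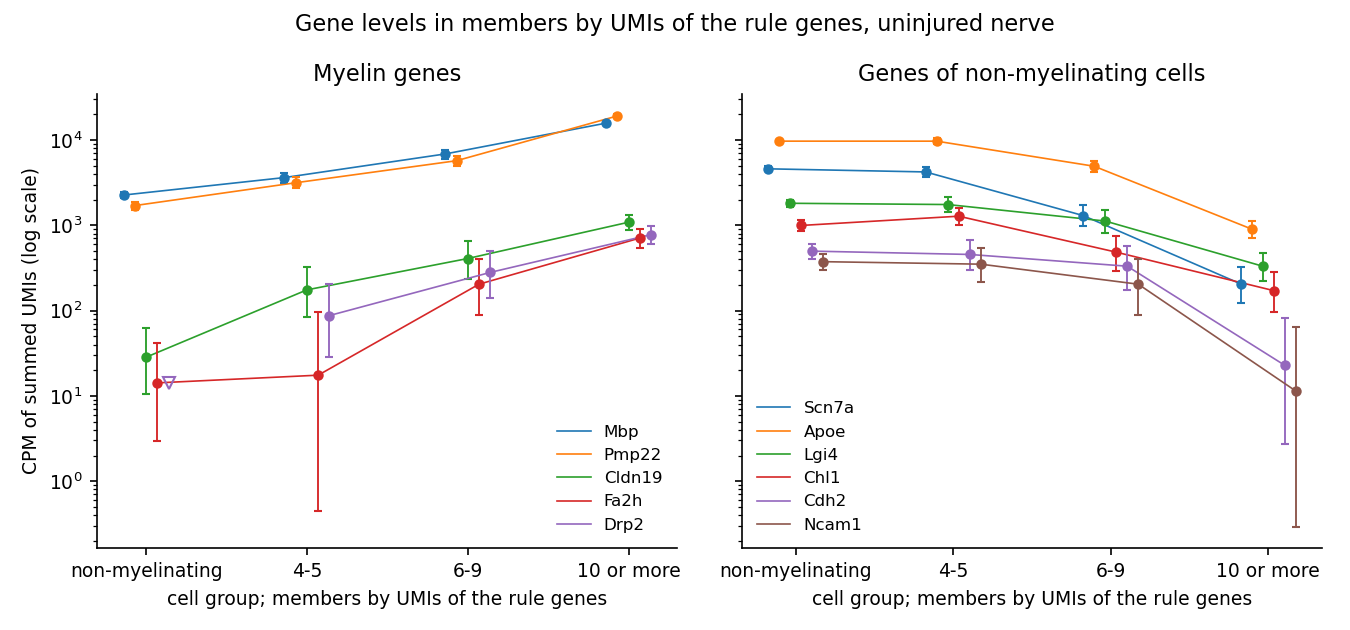
Levels in CPM (log scale) of 5 myelin genes (left) and 6 genes of non-myelinating cells (right) in non-myelinating Schwann cells and in members with 4-5, 6-9 and 10 or more rule-gene UMIs. Points are summed UMIs, bars are Poisson 95% intervals and the open triangle is the floor of 3 UMIs for a gene with 0 UMIs. Pmp22 goes from 1700 to 19104 CPM across the 4 groups while Scn7a goes from 4583 to 206 CPM.

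Markers of other cell types were present in some members. Of the 123 members, 47 had UMIs of another class at or above a set minimum: 39 had 2 or more of the 5 non-myelinating genes, 5 had 3 or more of vascular smooth muscle genes, 5 had 30 or more of mesenchymal genes and 4 had 3 or more of endothelial genes. A single high-marker cell held 129 of the 186 smooth muscle UMIs, and a single cell held 35 of the 127 endothelial UMIs. The mesenchymal list was found in all members, at 9008 CPM summed over the list, against 4807 in high-marker members, 26040 in non-myelinating Schwann cells and 5356 in cells with an endothelial or immune UMI. Immune genes gave 3 UMIs in 3 members, with Aif1, Cd52 and Coro1a at 0. Perineurial genes were led by Itgb4, a Schwann cell integrin, with Msln, Cldn1 and Krt19 at 0. Requiring 0 UMIs of 7 more genes of other classes, among them Dcn and Col1a1, left 12 members.

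Schwann cell identity was shared by all 3 groups of members. Sox10, the lineage factor, was at 377, 305 and 280 CPM from the high-marker to the low-marker members, with overlapping intervals, against 38.1 CPM in the other uninjured cells. Mbp had at least 1 UMI in 93.5% of members and a median of 11 UMIs (highest 91). It also had a UMI in 13.6% of the 397 cells with an endothelial or immune UMI, which were deeper (median 2148 UMIs against 1271). These cells had no upper limit of rule-gene UMIs. They can therefore include barcodes kept out of the members only by a Pecam1 or Ptprc UMI. The highest had 169 UMIs of the myelin list. Whether the Mbp UMIs of these cells came from free RNA or from Schwann cells sharing a barcode was not tested.

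Against the other 1822 uninjured cells, non-myelinating Schwann cells included, 1355 of 10683 genes compared were at least 2-fold higher in members (12.7%) and 1954 at least 2-fold lower (18.3%). Of the 25 myelin genes, 21 had enough UMIs to compare (30 over both sides), 19 were higher and 1, Tspan2, was lower, with a median log2 ratio of 4.53 against 0.00 over all genes. Pooled size factors in place of library totals gave 1115 higher and 2583 lower genes, around a median of -0.18. Mbp was 42.9-fold higher (95% interval 39.7 to 46.3) and Pmp22 29.1-fold (27.2 to 31.0). Fa2h was 126-fold higher (69.2 to 248), and Ugt8a, which makes galactosylceramide, was 93.3-fold higher (59.2 to 153). Drp2, the dystrophin-related partner of periaxin, was 80.8-fold higher (50.8 to 133). Gldn, which gathers sodium channels at nodes of Ranvier, was 46.2-fold higher (27.1 to 80.9), and Pou3f1, a transcription factor of the promyelinating stage, 58.0-fold (40.7 to 83.8).

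Genes outside the myelin lists were among the highest. Dusp15, a phosphatase gene, was at 283 CPM in members and 1.65 CPM in the other cells, a ratio of 171 (77.6 to 447). The septin gene Sept3 was 156-fold higher (54.3 to 613) and Sowaha 115-fold (43.4 to 386). Mt3, a metallothionein, was at 440 against 4.94 CPM, a ratio of 89.0 (54.5 to 152). Slc36a2, a proton-coupled amino acid transporter, was 65.7-fold higher (41.5 to 107), and the kinesin motor gene Kif1a 42.9-fold (26.6 to 70.5). Fam178b, Arhgap19, Mlip and Frmd3, which no list holds, were also among the highest, at ratios from 35.1 to 82.3.

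Lipid synthesis genes were higher across the lists. Of 24 cholesterol synthesis genes compared, 19 were at least 2-fold higher and none lower, with a median log2 ratio of 1.497. Hmgcs1, which starts the pathway, was at 1212 CPM in members and 181 CPM in the other cells (6.71-fold, 5.75 to 7.80), and Fdft1, the squalene synthase, was 4.81-fold higher (3.40 to 6.69). Of 28 fatty acid and sphingolipid genes, 17 were higher and 1 lower, with a median of 1.2. Elovl6 and Elovl1, elongases of fatty acids, were 7.69-fold (5.32 to 10.9) and 5.51-fold (4.21 to 7.13) higher.

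Ion channels and pumps were mostly higher, with 11 of 16 above 2-fold and 1 below, at a median log2 ratio of 2.19. Kcnk1, a two-pore potassium channel, was 35.2-fold higher (19.7 to 64.2) and Kcna1, a voltage-gated potassium channel, 11.9-fold (10.2 to 13.9). Receptors for axonal signals were divided, with 8 of 24 higher and 8 lower. The higher ones included Erbb3, the neuregulin receptor, at 8.32-fold (5.33 to 12.7), and the lower ones Il6st, at 0.345-fold (0.227 to 0.503). Metabolic support genes were not higher as a list (3 higher and 8 lower of 25, median -0.04). Ldhb, a lactate dehydrogenase subunit, was 12.05-fold higher (9.77 to 14.8) and Cryab, a small heat shock protein of Schwann cells, 12.6-fold (11.4 to 14.1). In the list of demyelinating neuropathy genes 8 of 16 were higher and 1 lower, among them Ndrg1 at 4.84-fold (4.34 to 5.39).

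The nearest cells in the same library were non-myelinating Schwann cells. These were 179 cells with a UMI of a general Schwann cell gene such as Sox10 or S100b, at least 2 UMIs of the 5 non-myelinating genes, fewer than 4 rule-gene UMIs and 0 UMIs of Pdgfra, Pecam1, Ptprc and Rgs5. Of 2662 genes compared, 242 were at least 2-fold higher in members (9.09%) and 241 at least 2-fold lower (9.05%). With high-marker members alone, 212 of 1915 were higher (11.1%) and 413 lower (21.6%). The choice of cells near the threshold thus moved the lower count by more than the higher one.

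Myelin genes separated these groups too. Of 18 compared, 10 were at least 2-fold higher in members and none lower, with a median log2 ratio of 1.86 against -0.03 over all genes; in high-marker members 12 were higher and 2 lower, with a median of 2.36. Pmp22 was at 11285 CPM in members and 1700 CPM in non-myelinating cells, a ratio of 6.64 (5.93 to 7.45), which was 11.2 (10.02 to 12.6) in high-marker members. Cldn19 was 23.1-fold higher (10.3 to 64.3), Bcas1 17.8-fold (7.87 to 49.7) and Mbp 4.46-fold (4.03 to 4.94). Drp2 had 84 UMIs in members and 0 in non-myelinating cells, so that it was at least 32.1-fold higher against a floor of 3 UMIs. Gjb1, the connexin 32 gene, had 20 UMIs in members and 0 in non-myelinating cells, and Cdh1, E-cadherin of the non-compact myelin, also had 20 and 0. Both were below the minimum for a ratio.

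Not every myelin gene followed. Cnp, which encodes a phosphodiesterase of the myelin sheath, was at 2081 CPM in members and 1340 CPM in non-myelinating cells, a ratio of 1.55. Cmtm5 and Cadm4 were lower in members, at ratios of 0.537 and 0.632, and were at 0.272 and 0.424 in high-marker members. These are genes of the myelin list that both kinds of Schwann cell carried. Kcna1 was likewise at 1418 and 1454 CPM, a ratio of 0.976 (0.824 to 1.15).

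**Figure D3:**
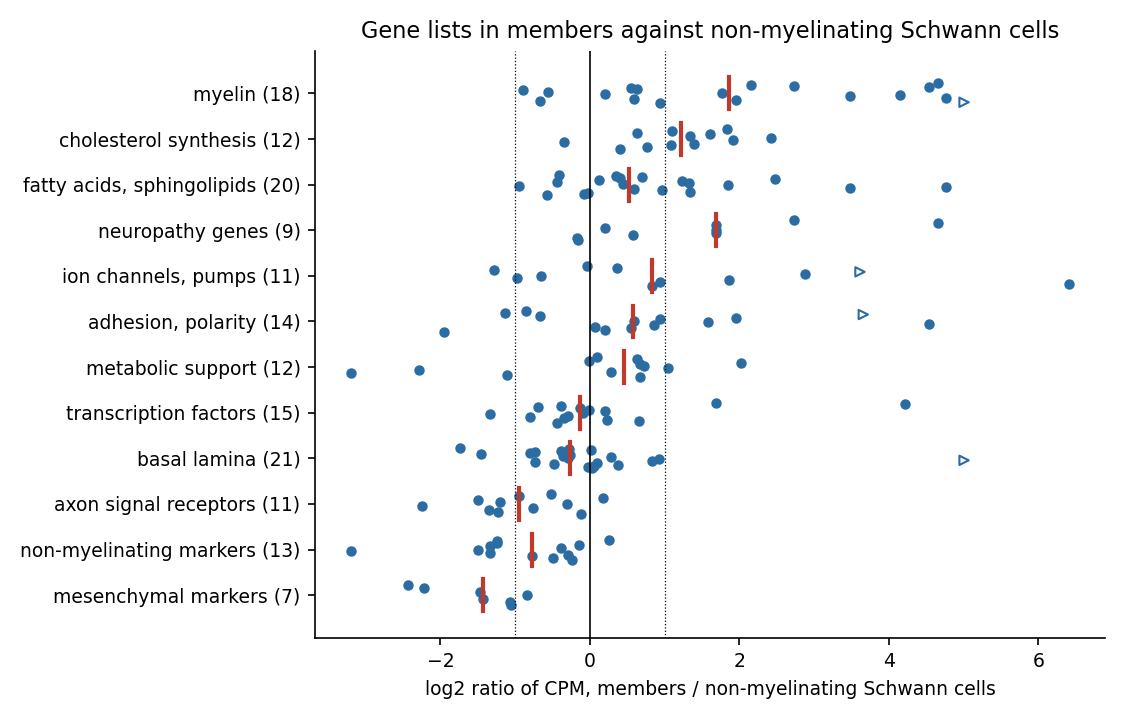
Log2 ratio of CPM in members over non-myelinating Schwann cells for each gene of 12 lists with at least 30 UMIs (number compared in parentheses). Points are genes, triangles are lower bounds for genes with 0 UMIs in non-myelinating cells, red bars are list medians and dotted lines mark 2-fold. The myelin median lies at 1.86, the cholesterol median at 1.22 and the axon signal receptor median at -0.94.

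Genes outside the myelin lists led this comparison as well. Fxyd6, a regulator of the sodium pump, had 138 UMIs in members and 1 in non-myelinating cells, a ratio of 158 (28.0 to 6300). Mt3, Slc36a2 and Dusp15 also had 1 UMI in non-myelinating cells, and their ratios were 93.0, 84.9 and 59.7. Emid1 and Arhgap19 had 0 UMIs there and were at least 21.4-fold and at least 18.0-fold higher. Sgk1, a serum- and glucocorticoid-regulated kinase, was 18.0-fold higher (7.96 to 50.2), and Sncg, gamma-synuclein, 18.7-fold (8.31 to 52.3). Shc4, a signalling adaptor, was 13.1-fold higher (5.29 to 41.8). Sgk1 and Sncg also had a UMI in 35.8% and 40.3% of the cells with an endothelial or immune UMI, above their shares of 25.2% and 35.0% in members. Ecscr, an endothelial gene, was 37.9-fold higher (6.34 to 1540), with a UMI in 17.9% of members and in 58.9% of the cells with an endothelial or immune UMI. The endothelial list was at 690 CPM in members and 204 CPM in non-myelinating cells, and its part in the Ecscr, Sgk1 and Sncg values was not tested.

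Cholesterol synthesis genes had a median log2 ratio of 1.22. Of 12 compared, 8 were at least 2-fold higher and none lower; in high-marker members 7 of 9 were higher, with a median of 1.99. Hmgcs1 was at 1212 CPM in members, 1793 in high-marker members and 341 in non-myelinating cells, a ratio of 3.55 (2.71 to 4.70) for the whole rule. Cyp51, the lanosterol demethylase, was 3.76-fold higher (2.30 to 6.36) and Fdft1 2.52-fold (1.46 to 4.52). Among fatty acid and sphingolipid genes 7 of 20 were higher and none lower. Elovl1 was 5.58-fold higher (3.17 to 10.5) and Ugt8a 11.1-fold (5.80 to 23.9).

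Transcription factors mostly did not differ by 2-fold. Of 15 compared 2 were higher, Egr2 and Pou3f1, and 1 lower, Rxrg. Egr2 was at 1125 CPM in members and 350 CPM in non-myelinating cells, 3.21-fold higher (2.45 to 4.24), and Pou3f1 at 614 and 33.1 CPM, 18.5-fold higher (8.70 to 47.1). Of the neuropathy genes 5 of 9 were higher and none lower, with Ndrg1 at 3.23-fold (2.66 to 3.93) and Sbf2, a myotubularin-related gene, at 3.21-fold. Ldhb was 4.07-fold higher (2.85 to 5.94) and Cryab 2.07-fold (1.79 to 2.39).

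Receptors for axonal signals were lower in members, with 5 of 11 at least 2-fold lower and none higher. In high-marker members it was 9 of 11. Gpr37l1, a prosaposin receptor, was at 244 CPM in members, 114 in high-marker members and 563 in non-myelinating cells. Ntrk3, the receptor of neurotrophin 3, was at 38.0 CPM in members and 180 CPM in non-myelinating cells, a ratio of 0.211 (0.0797 to 0.479). Il6st was at 0.392 of the non-myelinating level and Lrp1 at 0.426. Markers of non-myelinating cells that the cell rule did not use were also lower, 6 of 13 in members and 9 of 11 in high-marker members.

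Apod, a lipocalin gene, was among the genes furthest below the non-myelinating level. It was at 1299 CPM in members, 11889 in non-myelinating cells and 20082 in all other cells, a ratio of 0.109 (0.0953 to 0.125) to non-myelinating cells. The extracellular matrix and cell surface genes Dcn, Lum, Smoc2, Gpc3, Tgfbi, Abi3bp and Col6a1 were at ratios from 0.0835 to 0.215. Many of these are genes of nerve fibroblasts, and the mesenchymal list was 26040 CPM in non-myelinating cells against 9008 CPM in members, and 8427 against 5515 CPM in the median cell. The part of that difference in these ratios was not tested. Of 21 basal lamina genes 1 was higher in members (Drp2) and 2 lower, with a median log2 ratio of -0.27; in high-marker members 3 were higher and 7 lower, with a median of -0.54. Lama2, the laminin chain of the Schwann cell basal lamina, was at 92.4 CPM in members and 308 CPM in non-myelinating cells, and it was at 21.8 CPM in cells with an endothelial or immune UMI.

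Immediate-early and stress genes were abundant in all uninjured cells. Summed over the list they made up 48567 CPM of members, 64665 of non-myelinating cells and 37692 of all other cells. Fos was at 13132 CPM in members and 14071 CPM in non-myelinating cells. Atf3, a stress-induced factor, was at 445, 1298 and 1416 CPM from high-marker to low-marker members, beside 2448 CPM in non-myelinating cells. Hspa1a, an inducible heat shock gene, was at 411, 1833 and 3252 CPM, beside 3153. Both genes thus lay nearest the non-myelinating level in the low-marker members, while Fos went the other way, at 14228, 14434 and 10560 CPM.

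The same rule found 680 cells in the FACS-sorted neonatal library (29.5% of its passing barcodes, 27.6 to 31.4%) and 691 in the bead-cleared one (12.05%, 11.2 to 12.9%). Of these, 253 (37.2%) and 68 (9.84%) had 10 or more rule-gene UMIs. Sorting, beads and age can each set these shares. Over the whole rule 444 of 6779 genes were at least 2-fold higher in uninjured members than in both neonatal groups (6.55%), and 1111 at least 2-fold lower (16.4%). Because the groups differ in how many low-marker cells they hold, cells with 10 or more rule-gene UMIs were also compared. Their median depth was 1273 UMIs in the uninjured nerve, 2920 in the sorted and 2541 in the bead-cleared neonatal cells, so the same minimum is a higher share of the uninjured cells' UMIs. On this basis 151 of 1871 genes were higher than in both (8.07%) and 330 lower than in both (17.6%). Age, isolation and library cannot be told apart in any of these values.

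Structural myelin genes had no common direction. Pmp22 was at 19104 CPM in high-marker members, 22097 CPM in the sorted and 8483 CPM in the bead-cleared neonatal cells, between the levels of both neonatal libraries, and Mbp at 15735, 15910 and 7811 CPM. Of 18 myelin genes 3 were at least 2-fold higher than in both neonatal groups, Cd59a and Drp2 among them, and 2 lower, Pmp2 and Gjc3. Cholesterol genes had no member higher than in both and 1 of 11 lower, with medians of -0.23 and 0.999 on the log2 scale. The neonatal libraries differed from each other in Pmp22 by more than either differed from the adult cells.

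A small set of genes stood above both neonatal groups. Drp2 was at 776 CPM in high-marker members (603 to 984) against 119 and 59.5 CPM, 6.55-fold (4.75 to 8.99) and 13.0-fold (6.85 to 27.3) higher. Mt3 was at 811 CPM against 66.3 and 21.7 CPM. Ndrg1 was at 3049 CPM against 806 and 438 CPM. Egr2 was at 1313 CPM against 306 and 298 CPM, 4.29-fold (3.42 to 5.37) and 4.41-fold (3.17 to 6.20) higher; it is also an immediate-early gene in other cells. Kcna1 was at 1599 CPM against 602 and 514 CPM. Of 9 ion channel and pump genes compared 4 were higher than in both, and Kcnk1 and Clcn2 were among them. The level of each of these genes in the adult cells lay outside the counting intervals of both neonatal groups.

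Other genes stood below. Pmp2, a fatty acid binding protein of peripheral myelin, was at 160 CPM in high-marker members (87.4 to 268) against 1969 and 926 CPM, a ratio of 0.0812 (0.0443 to 0.137) and 0.173 (0.0925 to 0.298). Of 10 genes of immature or dividing cells, 7 were at least 2-fold lower than in both neonatal groups and 1, Id3, higher. Top2a, which dividing cells need to separate chromosomes, had 0 UMIs in all members and was at 93.0 and 173 CPM in the neonatal cells. Mki67 also had 0 UMIs in members. Cdkn1c, an inhibitor of the cell cycle, was at 43.5 CPM in the whole rule against 1363 and 2332 CPM, and the imprinted gene H19 had 0 UMIs. Of 19 basal lamina genes 7 were lower than in both, among them Lama2, Lamb1, Lamc1 and Nid1, which encode laminin chains and nidogen, and 2 were higher, Drp2 and Itgb4.

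**Figure D4:**
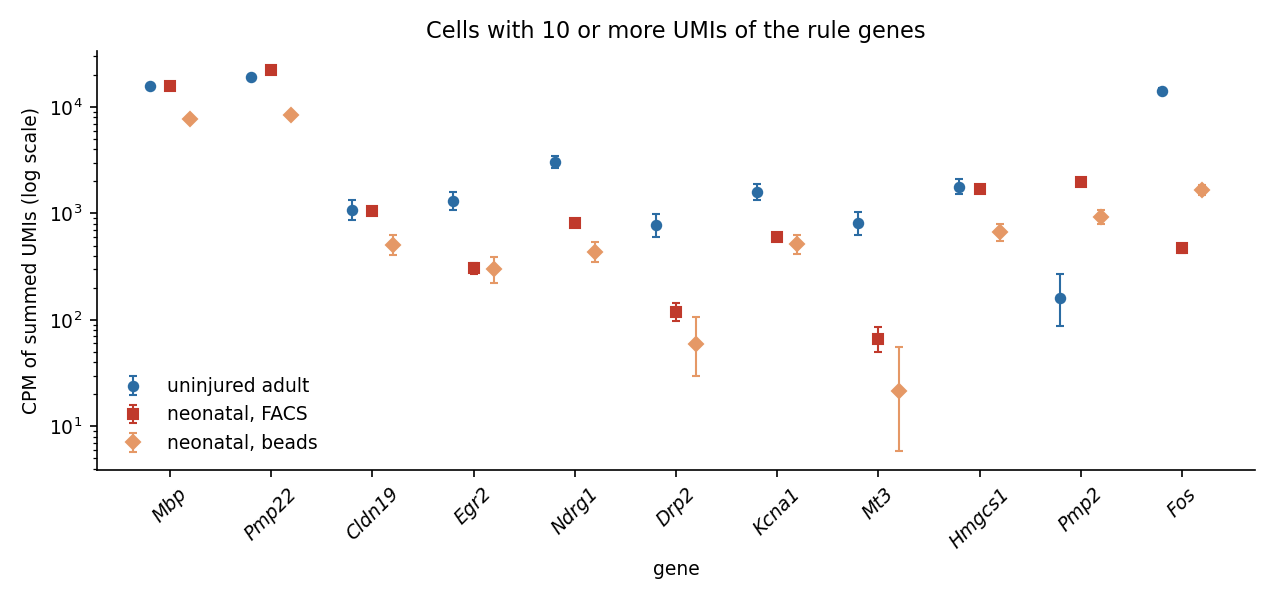
Levels in CPM (log scale) of 11 genes in cells with 10 or more rule-gene UMIs: 55 of the uninjured adult nerve, 253 of the FACS-sorted and 68 of the bead-cleared neonatal nerve; bars are Poisson 95% intervals. Mbp and Pmp22 of the adult lie between the neonatal levels, Drp2 and Mt3 lie above both and Pmp2 lies below both.

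Immediate-early and stress genes stood far above the neonatal level. All 17 compared were at least 2-fold higher than in both groups, with median log2 ratios of 4.91 and 3.09. Fos was at 14228 CPM against 473 and 1667 CPM. The 3 smooth muscle genes compared were also higher than in both, and 1 cell held 129 of the 156 UMIs of that list in high-marker members. The immediate-early difference was not particular to members: that list was at 37692 CPM in the other uninjured cells and at 2905 and 9714 CPM in the other cells of the sorted and bead-cleared neonatal libraries. Apod, at 1299 CPM in members and 34.4 and 31.6 CPM in neonatal cells of the rule, and the complement genes C3 and C4b also stood above the neonatal levels, and Apod was at 20082 CPM in the other uninjured cells.

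At 3 DPI the rule found 9 of 2281 barcodes (0.395%, 0.181 to 0.748%), none with 10 or more rule-gene UMIs. Their myelin list was at 7354 CPM, against 81487 in uninjured members, and their non-myelinating list at 12344 CPM, against 6444. They were deep cells (median 5842 UMIs), so a few rule-gene UMIs sufficed for the rule, and no comparison gene by gene was made. Barcodes shared between libraries numbered 0 to 3 for each pair and none was a cell of the rule.

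The study asked which ligands nerve cells express, and the ligands of its list were counted in members. Of these, 48 were found in at least 2% of members, 40 in at least 2% of non-myelinating Schwann cells, 35 in both and 91 in the other cells; 60 had no UMI in members. A count of 0 in 123 cells allows a share of up to 2.44% of cells with a UMI by the limit of 3 counts, and up to 2.95% by the exact interval. With every cell thinned to 500 UMIs (1 member was shallower), 26 ligands were found in members. The non-myelinating count at this depth was not made, so the order of 48 and 40 may not hold at equal depth. The 18 ligands found in more than 10% of members were led by Sema3b.

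Sema3b, a secreted semaphorin, was at 793 CPM in members (670 to 933), 492 CPM in non-myelinating cells and 119 CPM in the other cells. It had a UMI in 56.1% of members (46.9 to 65.0%), in 37.4% of non-myelinating cells and in 6.30% of the cells with an endothelial or immune UMI. Fgf1, an acidic fibroblast growth factor, was at 261 CPM in members, 47.3 in non-myelinating cells and 22.6 in the other cells, and had a UMI in 26.02%, 4.47% and 4.17% of them. Its level was 343, 204 and 175 CPM from high-marker to low-marker members, with overlapping intervals. Its ratio to non-myelinating cells was 5.51 (2.75 to 12.2). Dhh, the desert hedgehog ligand of Schwann cells, was at 185, 94.7 and 16.7 CPM and had a UMI in 23.6%, 9.50% and 3.13% of cells. At 500 UMIs per cell the shares of Dhh were 6.56% and 5.26% in members and non-myelinating cells.

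Beside Fgf1, the ligand Sema4c was at least 2-fold above both non-myelinating cells and the other cells, at 152, 61.5 and 38.4 CPM. Il16 and Sema6c each had 8 UMIs in members and 2 in non-myelinating cells, and Sema5a had 12 and 0, so all 3 were below the minimum for a ratio. Ptn, pleiotrophin, had a UMI in 30.1% of members but in 45.1% of cells with an endothelial or immune UMI, a higher share. It was at 45.7 CPM in high-marker members and 1241 CPM in low-marker members, beside 776 CPM in non-myelinating cells. Hbegf was at 136 CPM in members and 469 in non-myelinating cells, 0.290-fold. Ligands known from injured nerve had no UMI in members: Gdnf, Bdnf, Shh, Artn, Btc and Lif were all at 0. This was not particular to members. Of these ligands only Btc had a UMI in non-myelinating cells (0.559% of them). Shares in the other cells went from 0% for Shh to 1.32% for Lif.

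**Figure D5:**
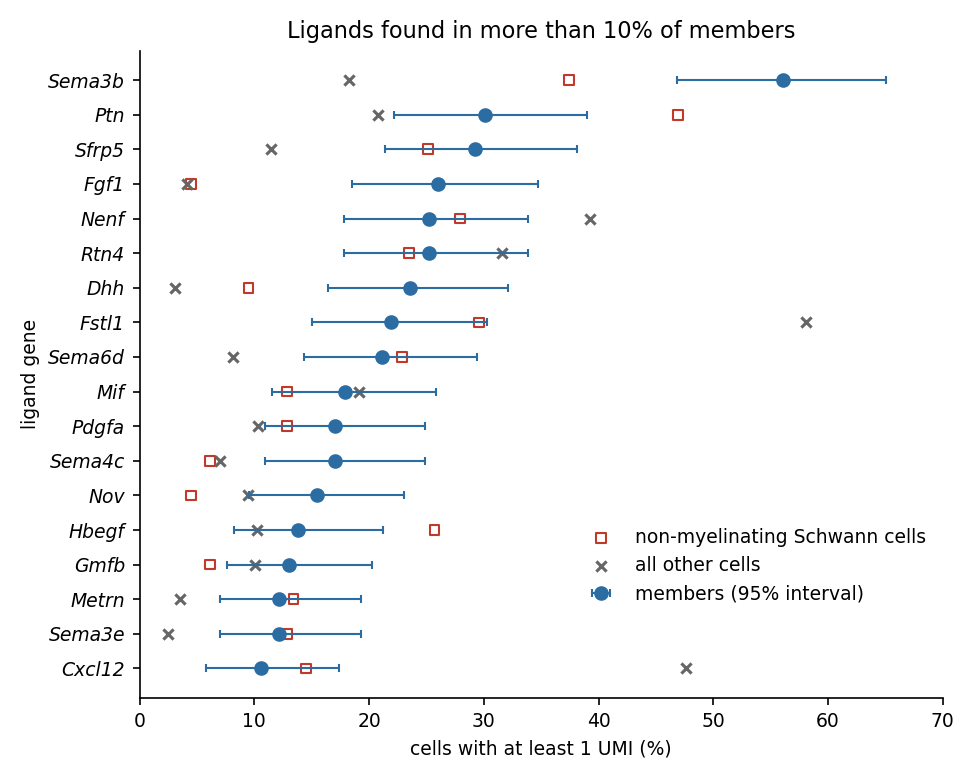
Share of cells with at least 1 UMI (%) for the 18 ligands found in more than 10% of members, with exact 95% intervals for the 123 members (circles), and shares in 179 non-myelinating Schwann cells (squares) and the 1822 other cells (crosses). Sema3b, Fgf1 and Dhh lie highest above both other groups. Ptn, Hbegf, Nenf, Fstl1, Sema6d, Metrn, Sema3e and Cxcl12 lie below the non-myelinating share.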

How the data were processed

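Drop-seq libraries were made from dissociated sciatic nerve, 1 per condition. The authors deposited raw digital expression matrices, which hold UMI counts for each gene and barcode, following the Drop-seq alignment cookbook. Fixed numbers of barcodes were kept (2000 uninjured, 2500 FACS-sorted neonatal, 6200 bead-cleared neonatal and 2500 at 3 DPI), and no filter or normalization had been applied to the counts. The genome build was mm10 per the submitters' processing notes, and neither an aligner version nor a gene annotation is named in the sources read for this work. Deposited totals were 4513814, 5110171, 7634799 and 8123103 UMIs in that order.

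From these counts barcodes with at least 200 genes and at most 10% mitochondrial UMIs were kept, which left 1945, 2306, 5736 and 2281. Counts were summed over the cells of a group and divided by the group's total, per 1000000 UMIs (CPM). Poisson 95% intervals are given for CPM, Clopper-Pearson intervals for shares of cells and exact conditional binomial intervals for CPM ratios. These cover counting error only. A gene was compared with at least 30 UMIs over both sides, and a ratio of 2 or more, or of 0.5 or less, counted as higher or lower. A gene with 0 UMIs on 1 side was set to a floor of 3 UMIs summed over the group. A ligand counted as found at 2% of cells. With 1 library per condition no p-value was computed. Named genes were the 20 highest and lowest of a comparison found in at least 10% of cells on 1 side, the rule genes left out, plus members of the lists. The 397 cells with an endothelial or immune UMI (Pecam1 or Ptprc, and 0 of Pdgfra) were chosen after seeing the data. No upper limit of rule-gene UMIs was set for them. The members and lists were chosen with earlier results of these data known. The comparison was checked on simulated data. No doublet caller was used for the values in the report, and the removal of cells with high doublet scores was tried as an alternative, beside other thresholds, pooled size factors, thinning and per-cell means. Tools were Python 3.11.15 with numpy 2.4.6, pandas 2.3.3, scipy 1.17.1, scanpy 1.11.5 and matplotlib 3.10.9, and R 4.3.3 with scran 1.30.0. Promoter windows came from RefSeq (GRCm38.p6). Some genes are not reported here.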

Additional observations from a re-analysis of the deposited data

How the results depend on the processing

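Moving the minimum of rule-gene UMIs moved the share of members to 8.38% at 3 UMIs, 4.27% at 6 and 2.83% at 10, and counting without Mal (an alternative chosen after seeing the data) gave 3.75%. Against the non-myelinating Schwann cells 413 of 1915 genes compared were lower at a minimum of 10, in place of 241 of 2662. Without Mal it was 409 of 2016. Against the neonatal cells of the same rule 288 of 4583 genes were higher at a minimum of 6, in place of 444 of 6779. At a minimum of 10, 151 of 1871 were higher (8.07%) and 330 lower (17.6%), against 6.55% and 16.4% in the main values. Without Mal 218 of 3168 were higher and 587 lower. Fewer genes were compared in each of these, and the counts fell with them. Requiring 0 UMIs of 7 more genes of other classes left 12 cells (0.617%) and 27 ligands. With these cells 282 of 10683 genes were lower than the other cells and 160 of 1363 higher than non-myelinating cells. Against neonatal cells 38 of 439 were higher and 108 lower. Thinning each cell to 500 UMIs left fewer genes to compare, and 26 ligands. Of 5654 genes 698 were higher and 1230 lower than the other cells. Against non-myelinating cells it was 74 and 97 of 825, and against neonatal cells 153 and 408 of 2277. With no minimum of UMIs per gene 2380 of 17884 were higher than the other cells. Of 12804 genes 1626 were higher and 1678 lower than non-myelinating cells, and 2163 of 13775 were higher than neonatal cells. In these the change follows from which cells or genes are counted. The other 69 values of the main counts stayed within 1.5 times or within their interval. Of 3480 values of single genes under alternatives, 584 moved beyond their counting interval and 0 reversed. Only genes at least 2-fold apart in the main values could count as reversed, and many were the extremes of their comparison. A gene with 0 UMIs on 1 side has no interval and could not count as moved. Genes that fell below the minimum under an alternative were left out. The absence of reversals was thus largely set in advance. No paired analysis was possible because each condition had 1 library. Depth limits genes with few UMIs: 1 UMI summed over members is 5.43 CPM.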
